A study of Mus musculus with 16 samples.

Results

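The genes described here are 34 stellate cell and extracellular matrix genes, taken by symbol from a table of estimated counts for 52143 genes in 16 mouse liver libraries. All 34 were found. They fall into quiescent stellate markers (*Lrat*, *Reln*, *Des*), PDGF receptors (*Pdgfra*, *Pdgfrb*), cytoskeletal genes of contractile and mesenchymal cells (*Acta2*, *Tagln*, *Vim*), 11 collagen chains, small leucine-rich proteoglycans (*Dcn*, *Bgn*, *Lum*), matrix glycoproteins (*Fn1*, *Fbn1*, *Sparc*), metalloproteinases (*Mmp2*, *Mmp14*) and their inhibitors (*Timp1*, *Timp2*, *Timp3*), lysyl oxidases (*Lox*, *Loxl1*), and the ligand *Tgfb1* with *Tgfbi*, a matrix protein induced by it. The rule that took them from the table used their names and no measured value. The members were, however, chosen with earlier results of these data known.

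Hepatic stellate cells lie between hepatocytes and the sinusoidal endothelium and, at rest, store vitamin A as retinyl esters, which the enzyme encoded by *Lrat* makes. On activation they lose these stores, take on contractile proteins such as smooth muscle actin (*Acta2*), respond to PDGF and TGF-β, and deposit collagens I and III, the main fibrils of the fibrotic liver. The matrix is then crosslinked by lysyl oxidases and turned over by metalloproteinases, which the TIMP proteins inhibit. Several of these genes are also used by portal fibroblasts, smooth muscle and endothelium, and fibronectin (*Fn1*) is made in bulk by hepatocytes.

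All 16 livers came from male C57BL6/J mice, 6 weeks old when the diets began. The Chow group (4 mice) and the Chow/FGFR4 KD group (4 mice) ate chow, whereas the HFD group (4 mice) and the HFD/FGFR4 KD group (4 mice) ate a high fat diet labelled 60%, in each case for 12 weeks. Every 2 weeks the KD mice were injected under the skin with siRNA to FGFR4, the hepatic receptor that represses bile acid synthesis, at 3 mg/kg, and the others received saline, so no group had a control siRNA. The siRNA carried GalNAc, a sugar taken up by hepatocytes, and was not directed at stellate cells. No allele was deleted in any group. *Fgfr4* was at 27.9, 25.8, 36.3 and 28.9 CPM in Chow (a gene's count over the library total, in the standard CPM unit, with totals scaled by TMM factors) and at 30.1, 28.6, 21.8 and 22.4 in HFD, against 5.95, 6.17, 4.24 and 2.76 in Chow/FGFR4 KD and 2.82, 2.43, 5.31 and 4.4 in HFD/FGFR4 KD.

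Library totals ran from 3445949 to 5976449 counts. *Alb*, a hepatocyte marker, was between 39462 and 60340 CPM in every library, so matrix genes were read from a small share of the counts: the 33 members other than *Fn1* summed to between 280.4 and 821 CPM. In bulk liver, fewer cells of a type and less RNA per cell cannot be told apart. The test was limma-voom, and a gene was called where its p was below 0.05 and its p after Benjamini-Hochberg adjustment below 0.25, the threshold of the study. With a filter that left out genes under 1 CPM in more than 4 libraries, 30 members were tested, and *Mmp2*, *Timp1*, *Lox* and *Loxl1* were too low.

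The libraries of a group were not alike. Of the 30 tested members, 26 had HFD replicates 1 and 3 as the highest pair of their group, and HFD replicate 3 was the highest of all 16 libraries for 20 members. HFD replicate 2 was the lowest of its group for 22 members. In the HFD/FGFR4 KD group, replicate 1 was the lowest for 22 members and replicate 2 the highest for 21. The gene *Gm42418* took 22.31% of the counts of that replicate 1, against 13.72% to 16.19% in the rest of its group. Over all 16 libraries this share ran from 11.07% to 22.7%, and its part in the members' values was not tested. In the Chow/FGFR4 KD group, replicate 4 was the lowest for 15. The plot of members by library shows these ranks as dark columns. Pairs of libraries were also compared over 7405 genes by chi-square per degree of freedom, which is higher where 2 libraries differ more. The value was 11.4 between HFD replicates 1 and 3, 11.7 between 2 and 4, and 34.7 to 58.9 for the other HFD pairs. HFD/FGFR4 KD replicate 1 was at 48 to 72.6 from the rest of its group, which lay at 7.59 to 16.6 from each other. The same grouping of libraries was thus present well beyond the members, and the share of all genes with the ranks above was not computed.

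**Figure D1:**
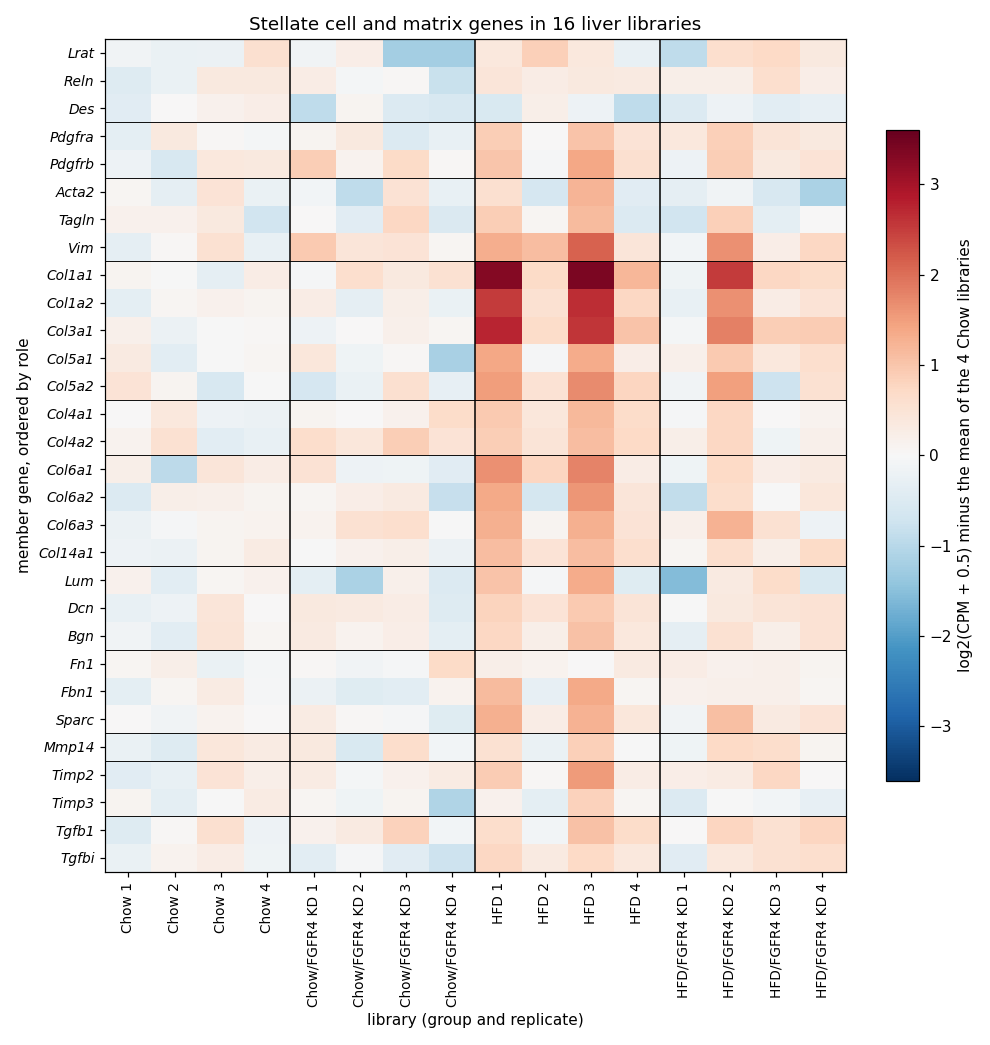
Each row is a tested member, ordered by role with thin lines between roles, each column a library, and the colour is log2(CPM + 0.5) minus the mean of the 4 Chow libraries. The columns of HFD 1 and HFD 3 are the darkest red, HFD/FGFR4 KD 2 is next, and HFD/FGFR4 KD 1 is close to Chow.

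Promoter sequence was looked at because many members moved together across libraries. RefSeq promoter windows (GRCm38.p6, 250 bases before to 50 after a start) were held for 23 members, in 24 windows. *Col14a1*, *Col1a1*, *Col5a2*, *Dcn*, *Fn1*, *Lox*, *Loxl1*, *Lum*, *Mmp2*, *Pdgfrb* and *Tagln* had no entry. Of 9 windows that began within 5 bases of the GENCODE start and held no annotated exon upstream, 4 are printed to set a collagen and a proteoglycan that rose on the high fat diet beside a pair of quiescent stellate markers that did not pass the test there. They give the 250 bases before the start, and capitals mark the motifs found on either strand. They are *Col3a1* at chr1:45311288-45311537 (plus strand), *Bgn* at chrX:73483351-73483600 (plus strand), *Lrat* at chr3:82903975-82904224 (minus strand) and *Reln* at chr5:22344706-22344955 (minus strand).
*Col3a1*: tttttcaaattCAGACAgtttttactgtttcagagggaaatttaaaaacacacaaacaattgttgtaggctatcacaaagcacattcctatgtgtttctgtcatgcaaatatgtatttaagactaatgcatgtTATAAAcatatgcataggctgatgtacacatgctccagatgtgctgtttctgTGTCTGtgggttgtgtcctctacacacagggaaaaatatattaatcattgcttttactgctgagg
*Bgn*: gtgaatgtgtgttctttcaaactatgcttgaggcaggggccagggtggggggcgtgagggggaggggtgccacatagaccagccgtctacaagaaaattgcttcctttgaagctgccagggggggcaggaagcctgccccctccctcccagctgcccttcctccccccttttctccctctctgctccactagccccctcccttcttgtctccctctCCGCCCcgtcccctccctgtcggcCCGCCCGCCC
*Lrat*: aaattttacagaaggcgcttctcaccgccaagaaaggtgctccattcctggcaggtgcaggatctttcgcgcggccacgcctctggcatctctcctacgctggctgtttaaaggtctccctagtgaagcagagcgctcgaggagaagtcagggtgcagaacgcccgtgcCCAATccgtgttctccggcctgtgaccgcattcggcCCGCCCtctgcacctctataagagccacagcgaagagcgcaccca
*Reln*: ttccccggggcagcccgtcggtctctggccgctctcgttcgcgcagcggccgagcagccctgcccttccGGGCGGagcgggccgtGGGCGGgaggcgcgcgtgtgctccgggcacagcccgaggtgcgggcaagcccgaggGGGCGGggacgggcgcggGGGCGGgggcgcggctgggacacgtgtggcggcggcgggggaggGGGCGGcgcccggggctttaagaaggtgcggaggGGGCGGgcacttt

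The *Col3a1* window was rich in A and T, with TATAAA at -117 and the SMAD core letters CAGACA at -239 and, on the other strand, at -65. The *Bgn*, *Lrat* and *Reln* windows held the GC box letters GGGCGG or their complement, in *Reln* at 6 places, and *Lrat* held CCAAT at -81. Searched on both strands over the full windows, GGGCGG was in 17 of 24 member windows (70.8%) and in 35.7% of 32851 mouse promoter windows. CAGACA was in 6 of 24 (25%) and in 21% of all, CCAAT in 8 of 24 (33.3%) and in 37.4% of all, TATAAA in 2 of 24 (8.3%) and in 13.6% of all, and the AP-1 letters TGAGTCA or TGACTCA in 1 of 24 (4.2%) and in 5.2% of all. The CArG box, which serum response factor binds, was in none of the 24 and in 1.6% of all. These matches describe letters only. *Col4a1* (chr8:11198423-11312826, minus strand) and *Col4a2* (chr8:11312805-11449287, plus strand) lie head to head, and their RefSeq starts at 11312826 and 11312805 are 21 bases apart.

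On the high fat diet in saline-injected mice, collagen and other matrix genes rose and the quiescent stellate markers did not pass the test. Of 30 tested members, 17 were called higher and 0 lower, where 13.3% of all 11324 tested genes were called higher and 26% in either direction. The change was above 0 for 29 members, with a median log2 change of 0.72 against 0.01 for all genes. At an adjusted p under 0.05 the count was 5 (*Col14a1*, *Col4a1*, *Col4a2*, *Dcn* and *Col3a1*), where 9.2% of all genes were called. The HFD and Chow libraries did not overlap for 9 members, all higher in HFD, where 16.1% of all tested genes did not overlap.

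Collagen I, the heterotrimer of *Col1a1* and *Col1a2* chains that gives fibrils their strength, showed the widest range. *Col1a1* (chr11:94936224-94953042, plus strand) was at 3.69, 3.39, 2.64 and 4.26 CPM in Chow and at 38.6, 5.89, 41.1 and 8.48 CPM in HFD. All 4 HFD libraries were above all 4 Chow libraries, but replicates 1 and 3 were 11 and 11.8 times the Chow mean and replicates 2 and 4 were 1.68 and 2.43 times. The fitted log2 change was 2.33 (SE 0.851, adjusted p = 0.0963), or 5.02-fold. These values rest on 13 to 18 counts a library in Chow and 36 to 268 in HFD.

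*Col1a2* (chr6:4504814-4541544, plus strand) was at 4.51, 6.26, 6.69 and 6.39 CPM in Chow and at 36, 8.83, 40.2 and 10.3 CPM in HFD, again without overlap. It rose by 1.73 on the log2 scale (SE 0.578, adjusted p = 0.0694). The ratio of *Col1a1* to *Col1a2* CPM was 0.394 to 0.818 in Chow and 0.667 to 1.07 in HFD, so the chains kept overlapping ratios.

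*Col3a1* (chr1:45311538-45349706, plus strand), which forms the fine reticular fibrils of the liver, was at 13.7, 10.4, 12.0 and 12.5 CPM in Chow and at 83.1, 19.6, 74.8 and 25.2 CPM in HFD. It was the most abundant fibrillar collagen measured per kb of its longest transcript, at a mean of 2.19 CPM per kb in Chow and 9.11 in HFD. Its log2 change was 1.80 (SE 0.498, adjusted p = 0.0317). *Col5a2*, a minor chain that sits inside collagen I fibrils, was at 0.811 to 2.26 CPM in Chow and 2.29 to 5.83 CPM in HFD and rose by 1.35 (SE 0.505, adjusted p = 0.102). *Col5a1*, its partner chain, had a log2 difference of 0.79 (95% interval -0.02 to 1.60) and was not called.

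Leaving out HFD replicate 1 or 3, the libraries with high collagen, lowered these values without ending the calls of *Col1a1* and *Col3a1*. The other of these libraries stayed in each run, so the runs cannot show whether the calls rest on the pair. Without HFD replicate 1, *Col1a1* rose by 1.91 (adjusted p = 0.154) and *Col3a1* by 1.46 (adjusted p = 0.0694). Without HFD replicate 3 the values were 1.91 (adjusted p = 0.154) and 1.53 (adjusted p = 0.0782). The count of called members was 13 without HFD replicate 1, 12 without HFD replicate 3 and 21 without HFD replicate 2. Of all genes, 22.4%, 21.3% and 26.6% were called in these settings. The count of members was also 13 without Chow replicate 1, where 21.4% of all genes were called. *Pdgfra*, *Pdgfrb*, *Col6a3* and *Timp2* lost their calls without HFD replicate 1, without Chow replicate 1, and also without HFD replicate 3, where *Bgn* was lost as well. *Bgn*, *Pdgfrb* and *Timp2* lost theirs without Chow replicate 2, *Col5a2* without Chow replicate 3 and *Pdgfrb* without HFD replicate 4.

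**Figure D2:**
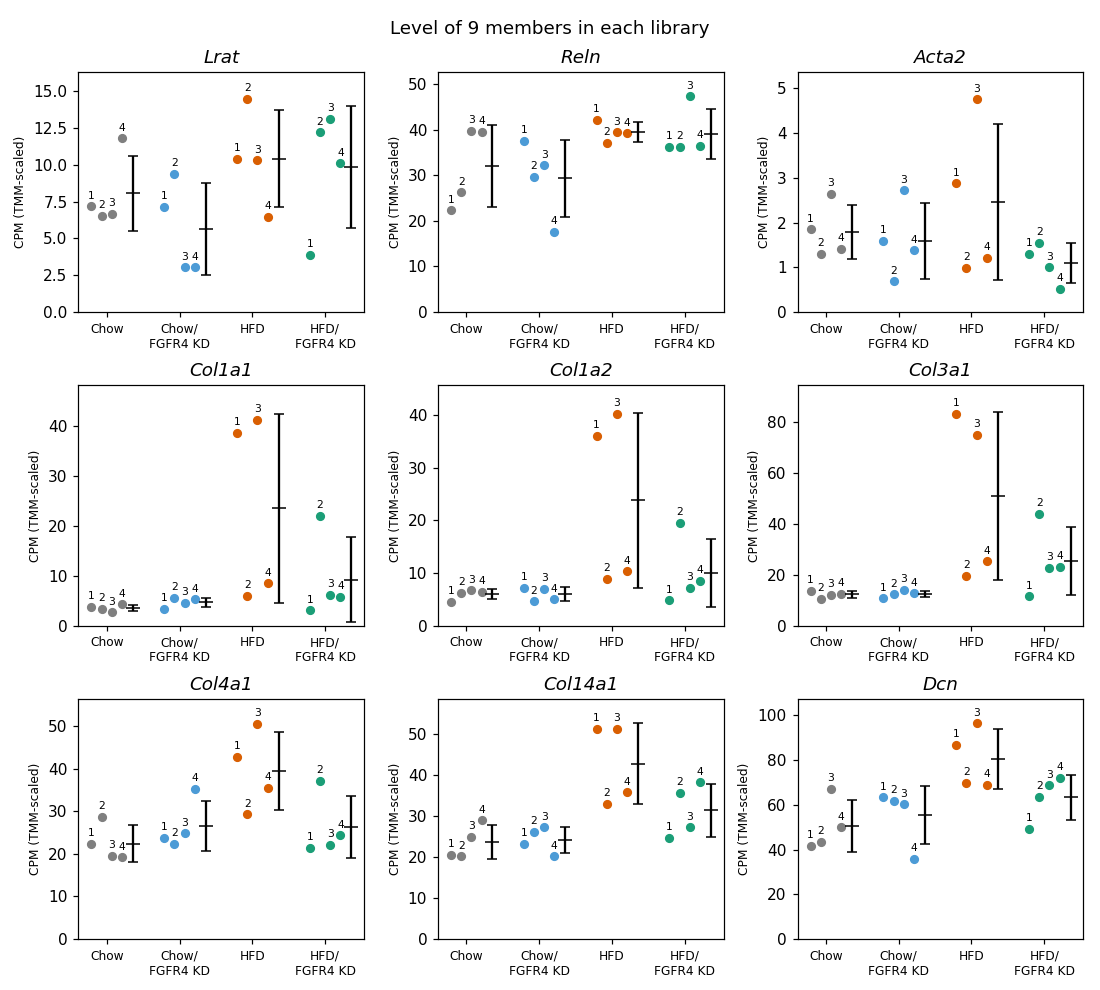
Points are CPM (linear axis from 0) in each library, numbered by replicate, for 9 members, and the black mark with its bar is the mean ± SD of the 4 libraries of a group. *Col1a1*, *Col1a2* and *Col3a1* are highest in HFD 1 and HFD 3, whereas *Lrat* is highest in HFD 2 and *Reln* is level across HFD.

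The collagen IV chains, *Col4a1* and *Col4a2*, and *Col14a1* rose by less than collagens I and III, with smaller standard errors. *Col4a1*, a chain of the basement membrane network, was at 22.3, 28.7, 19.5 and 19.2 CPM in Chow and at 42.8, 29.3, 50.6 and 35.5 CPM in HFD, with the lowest HFD library just above the highest Chow library. It rose by 0.82 (SE 0.201, adjusted p = 0.0173). *Col4a2*, its head-to-head neighbour, was at 15.4, 20.9, 10.8 and 11.6 CPM in Chow and at 26.4, 19.6, 31.4 and 23.8 CPM in HFD, which overlap, and rose by 0.84 (SE 0.212, adjusted p = 0.0206).

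*Col14a1* (chr15:55307750-55520803, plus strand), a collagen bound to the surface of fibrils, had the smallest p of the members. It was at 20.5, 20.1, 24.9 and 28.9 CPM in Chow and at 51.2, 32.9, 51.1 and 35.7 CPM in HFD, with no overlap, a log2 change of 0.85 (SE 0.179) and an adjusted p of 0.00851. Of the beaded-filament collagen VI chains, *Col6a1* rose by 1.22 (SE 0.406, adjusted p = 0.0698) and *Col6a3* by 0.85 (SE 0.329, adjusted p = 0.112). *Col6a2* had a log2 difference of 0.79 (95% interval -0.32 to 1.91) and was not called. Of 11 collagen chains, 9 rose, and the change was above 0 for all 11. Their sum was 102 ± 3.95 CPM in Chow and 245 ± 109 CPM in HFD (SD, n = 4).

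Proteoglycans and glycoproteins of the matrix rose by less. Decorin (*Dcn*), which binds collagen fibrils and TGF-β, was at 41.6, 43.6, 67.3 and 49.9 CPM in Chow and at 86.7, 69.8, 96.4 and 68.9 CPM in HFD, without overlap, and rose by 0.68 (SE 0.187, adjusted p = 0.0313). Biglycan (*Bgn*), a related proteoglycan whose promoter is shown above, rose by 0.59 (SE 0.224, adjusted p = 0.105). Osteonectin (*Sparc*), a collagen-binding glycoprotein, was at 25, 22.7, 27 and 24.9 CPM in Chow and at 60.8, 29.9, 59.5 and 33.1 CPM in HFD and rose by 0.81 (SE 0.260, adjusted p = 0.0589). Lumican (*Lum*, log2 difference 0.56, adjusted p = 0.511) and fibrillin 1 (*Fbn1*, 0.69, adjusted p = 0.294) were not called.

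Fibronectin stood apart from the rest in level. *Fn1* was at 1098 ± 143 CPM in Chow and 1229 ± 103 CPM in HFD (SD, n = 4), or 132 and 148 CPM per kb of its longest transcript, where the next member by that measure, *Bgn*, was at 14.9 and 22.7. Its log2 change was 0.17, with a 95% interval from -0.14 to 0.47.

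The quiescent stellate markers gave no call on the high fat diet. *Lrat* was at 7.18, 6.52, 6.69 and 11.8 CPM in Chow and at 10.4, 14.5, 10.3 and 6.46 CPM in HFD, which overlap, and the library with the highest *Lrat*, HFD replicate 2, had the lowest *Col1a1* of its group. Its log2 change was 0.38 (95% interval -0.38 to 1.14). *Reln*, a secreted glycoprotein marking stellate cells at rest, was at 22.3, 26.3, 39.8 and 39.5 CPM in Chow and at 42.2, 37.1, 39.4 and 39.2 CPM in HFD, with a log2 change of 0.34 (95% interval -0.07 to 0.76). *Des*, the stellate intermediate filament desmin, was at 1.64 to 2.84 CPM in Chow and 1.01 to 2.78 in HFD, with a change of -0.42 (95% interval -1.08 to 0.23) on 5 to 17 counts a library. The intervals of *Lrat* and *Reln* hold a value as large as the rise of *Dcn*.

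Markers of the activated, contractile state were low. *Acta2* was at 1.85, 1.30, 2.64 and 1.42 CPM in Chow and at 2.88, 0.983, 4.76 and 1.21 CPM in HFD, with a change of 0.22 (95% interval -0.77 to 1.21) on 5 to 31 counts a library. *Tagln*, the actin-binding protein transgelin, differed by 0.48 (95% interval -0.39 to 1.35). It shares 62.2% of its 31-base transcript words with other genes, mostly the overlapping antisense gene Gm48529, so its reads could be split. *Vim*, the intermediate filament vimentin of mesenchymal cells and leukocytes, was at 4.92, 6.52, 9.53 and 5.21 CPM in Chow and at 16.3, 14.4, 29.1 and 8.68 CPM in HFD and rose by 1.32 (SE 0.418, adjusted p = 0.0582). The PDGF receptors, which drive growth and migration of stellate cells, rose by 0.70 (*Pdgfra*, SE 0.285, adjusted p = 0.130) and 0.79 (*Pdgfrb*, SE 0.368, adjusted p = 0.188), both on overlapping libraries. Their calls were lost in 4 (*Pdgfra*) and 7 (*Pdgfrb*) of 19 alternative settings.

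The remodelling enzymes were the least measurable. *Mmp14*, a membrane metalloproteinase that activates pro-MMP2, was at 8.87 to 16.4 CPM in Chow and 10.3 to 22.9 in HFD, with a difference of 0.30 (95% interval -0.33 to 0.93). *Mmp2*, the gelatinase, had 3 to 7 counts a library in Chow and 8 to 25 in HFD. In a fit that kept every gene with at least 10 counts in all, it rose by 1.30 (SE 0.447, adjusted p = 0.0971). In the same fit, *Loxl1*, a lysyl oxidase of elastic fibres, rose by 1.51 (SE 0.685, adjusted p = 0.211), from 0 to 5 counts in Chow to 6 to 17 in HFD. *Lox* had 0 to 6 counts in any library and *Timp1*, an inhibitor strongly induced in fibrosis, 0 to 4, with *Timp1* at 0 in all 4 Chow libraries. In that fit *Timp1* differed by 1.19 (95% interval -0.73 to 3.11) and *Lox* by 0.75 (-1.39 to 2.89), and neither was called. A count of 0 allows up to 3 counts, so changes of *Lox* and *Timp1* were not resolved at this depth.

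Of the other inhibitors, *Timp2* was at 3.69 to 7.30 CPM in Chow and 5.23 to 15.6 in HFD and rose by 0.75 (SE 0.330, adjusted p = 0.163), a call lost in 5 of 19 alternative settings. *Timp3* differed by 0.19 (95% interval -0.34 to 0.72). It lies in an intron of *Syn3* on the other strand and shares 21.9% of its words with other genes, as *Fbn1* does with 19.9%. *Tgfb1*, the main fibrogenic ligand, differed by 0.61 (95% interval -0.08 to 1.30) and was not called. *Tgfbi* was at 19.3, 24.8, 27.6 and 20.6 CPM in Chow and at 38.9, 28.8, 38.0 and 29.9 CPM in HFD, without overlap, and rose by 0.56 (SE 0.198, adjusted p = 0.0859).

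**Figure D3:**
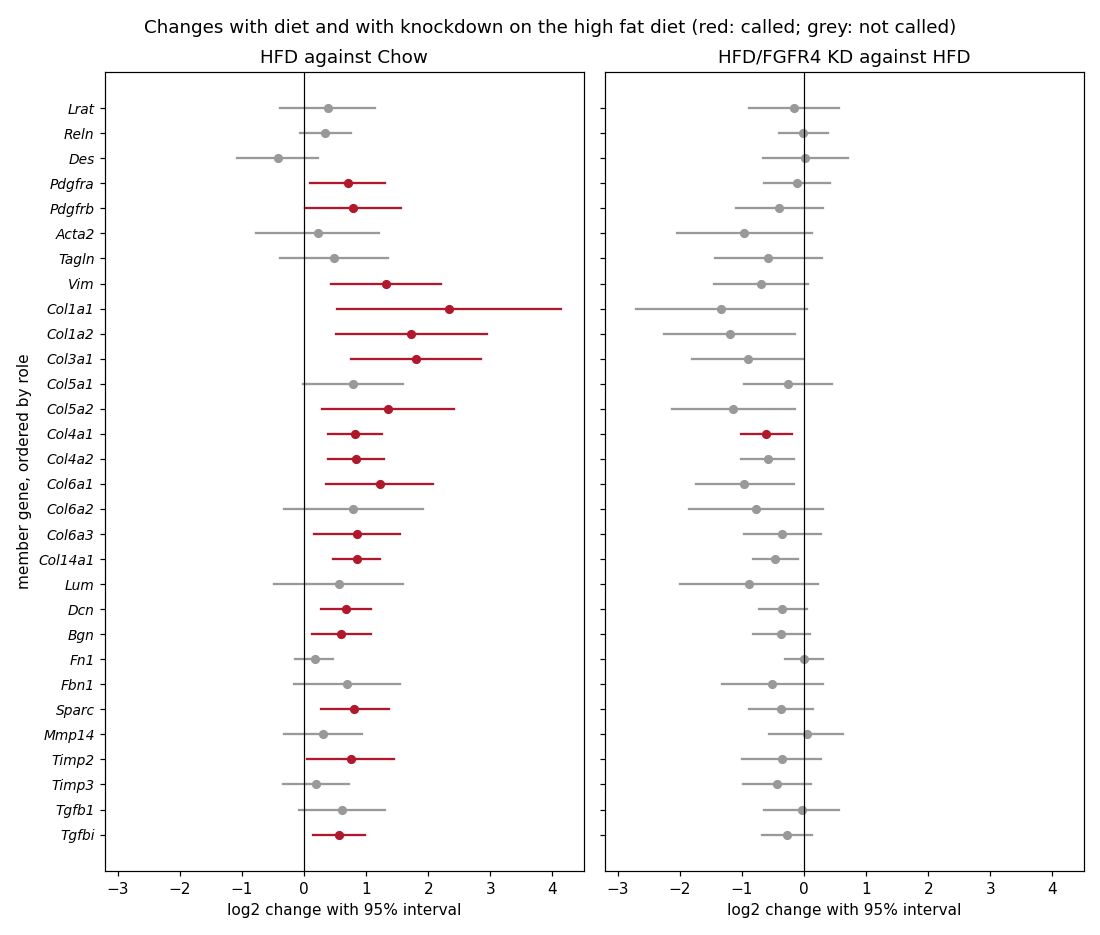
Points are the log2 change of each tested member and lines its 95% interval from limma-voom, in red where the gene was called, for HFD against Chow (left) and HFD/FGFR4 KD against HFD (right). Of 30 members, 17 are red on the left, all to the right of 0, and *Col4a1* alone is red on the right, at -0.61.

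With the diet compared among KD mice, 2 of 30 members were called, both higher, where 10.1% of all genes were called higher and 20.2% in either direction. The change was above 0 for 25 members, with a median of 0.25, and 0 members had groups that did not overlap, where 11.5% of all genes did. *Tgfbi* was at 17.4, 22.2, 17 and 13.5 CPM in Chow/FGFR4 KD and at 17.1, 30.1, 33.5 and 34.7 CPM in HFD/FGFR4 KD, where replicate 1 lay at the chow level, and rose by 0.67 (SE 0.223, adjusted p = 0.108). It was the only member called in both diet comparisons. *Reln* rose by 0.45 (SE 0.206, adjusted p = 0.233), but lost this call in 13 of 19 alternative settings. Without HFD/FGFR4 KD replicate 1, 6 members were called, all higher, where 22.4% of all genes were called in either direction. *Lrat* (1.14, adjusted p = 0.0718), *Col3a1*, *Col14a1* and *Sparc* were called there in addition to *Tgfbi* and *Reln*. Without HFD/FGFR4 KD replicate 2, *Tgfbi* was called higher and *Col4a2* lower (-0.55, adjusted p = 0.216), and 13.1% of all genes were called. With all libraries *Col4a2* was at -0.38 (adjusted p = 0.342).

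The fibrillar collagens among KD mice were read against wide intervals. *Col1a1* was at 3.37, 5.49, 4.54 and 5.24 CPM in Chow/FGFR4 KD and at 3.03, 21.9, 6.14 and 5.70 CPM in HFD/FGFR4 KD, so that replicate 2 alone lay well above chow. Its log2 change was 0.60 (95% interval -1.29 to 2.50). *Col3a1* was at 10.7, 12.3, 13.9 and 12.7 CPM in Chow/FGFR4 KD and at 11.5, 43.8, 22.7 and 23.1 CPM in HFD/FGFR4 KD, with 3 of 4 libraries above all chow libraries and a change of 0.88 (95% interval -0.26 to 2.03). The change was smaller than in saline-injected mice for 26 of 30 members.

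Whether the diet changes differ between saline and KD mice is tested by the difference between the KD effects on the diets, which is the same contrast. Of 30 members, 0 were called by limma-voom (0.0353% of all genes were), and 2 had an unadjusted p under 0.05, both collagen IV chains. *Col4a2* differed by -1.22 (SE 0.303, adjusted p = 0.491) and *Col4a1* by -0.84 (SE 0.293, adjusted p = 0.606). For *Col1a1* the difference was -1.72 with a 95% interval from -4.34 to 0.89. The smaller diet changes in KD mice were therefore not shown to differ from those in saline-injected mice, although *Col4a2* was called without HFD/FGFR4 KD replicate 2 (-1.39, adjusted p = 0.175).

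On the high fat diet, FGFR4 KD lowered a single member past the threshold. Of 30 members, 27 had a change below 0 (median -0.41, against 0.00 for all genes), 7 had an unadjusted p under 0.05, and 1 was called, lower, where 1.64% of all genes were called lower and 3.14% in either direction, so the share of members called was near that of all genes. There were 0 members whose groups did not overlap, where 6.49% of all genes did not. *Col4a1* was at 42.8, 29.3, 50.6 and 35.5 CPM in HFD and at 21.5, 37.2, 22.2 and 24.4 CPM in HFD/FGFR4 KD, where 3 of 4 libraries were below all of HFD. It fell by 0.61 on the log2 scale (SE 0.194, adjusted p = 0.228) and lost this call in 12 of 19 alternative settings.

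*Col4a2* was at 26.4, 19.6, 31.4 and 23.8 CPM in HFD and at 16.5, 24.1, 12.8 and 16.1 CPM in HFD/FGFR4 KD, with a change of -0.58 (SE 0.201, adjusted p = 0.280), and was not called. *Col1a1* differed by -1.33 (95% interval -2.71 to 0.05), *Col1a2* by -1.20 (-2.25 to -0.14, adjusted p = 0.380) and *Col3a1* by -0.91 (-1.81 to -0.02, adjusted p = 0.444). HFD replicates 2 and 4 lay in the range of HFD/FGFR4 KD for these fibrillar chains. Without HFD replicate 2 the count of called members was 9, all of them collagen chains and all lower, with *Col1a1* at -1.84 (adjusted p = 0.174). In that setting 5.49% of all genes were called in either direction. Without HFD/FGFR4 KD replicate 2 the count of members was 3 (*Col5a2*, *Col4a1* and *Col4a2*), where 3.99% of all genes were called. It was 0 without HFD replicate 1 or 3 or without HFD/FGFR4 KD replicate 1, 3 or 4. Of all genes, 0.786% to 1.49% were called in these settings, and 2.33% without HFD replicate 4. Without HFD replicate 4, 1 member was called, *Col6a1* (-1.21, adjusted p = 0.180), and *Col4a1* was no longer called (-0.64, adjusted p = 0.272).

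The quiescent markers gave smaller values in the same comparison. *Reln* differed by -0.01 (95% interval -0.41 to 0.39), *Lrat* by -0.16 (-0.89 to 0.56) and *Des* by 0.02 (-0.66 to 0.71). *Fn1* differed by 0.00 (-0.30 to 0.31) and *Mmp14* by 0.04 (-0.56 to 0.63). *Acta2*, the marker of contractile cells, was at 1.30, 1.55, 0.997 and 0.518 CPM in HFD/FGFR4 KD and differed by -0.96 (-2.05 to 0.12), on 2 to 7 counts a library. The comparisons of HFD with Chow and of HFD/FGFR4 KD with HFD share the HFD libraries, so libraries high in HFD raise the first and lower the second.

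On chow, FGFR4 KD called 0 of 30 members by limma-voom, and 0.00883% of all genes were called. The median change was -0.01, and 1 member had an unadjusted p under 0.05. This was *Col4a2*, at 15.4, 20.9, 10.8 and 11.6 CPM in Chow and 22.4, 19, 26.6 and 20.1 CPM in Chow/FGFR4 KD, with a change of 0.63 (SE 0.226, adjusted p = 0.976). The ratio of *Col4a1* to *Col4a2*, chains of the same trimer, was 1.37 to 1.81 in Chow and 0.932 to 1.75 in Chow/FGFR4 KD.

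Within groups, the members moved together. After subtracting group means from log2 CPM over the 16 libraries, the median Pearson correlation between members was 0.49 over 435 pairs, of which 384 were above 0, and 0.69 (0.47 to 0.96) over the 10 pairs of fibrillar collagens. *Col1a1* correlated at 0.96 with *Col3a1*, 0.89 with *Col1a2*, 0.83 with *Col6a3* and 0.82 with *Sparc*, but at 0.27 with *Lrat*, -0.05 with *Reln* and -0.07 with *Fn1*. Between the quiescent markers and the fibrillar collagens the median was 0.05 over 15 pairs. All of these genes were read from the same libraries and share their depth and composition. The same median over all tested genes was not computed, so these correlations are not shown to be particular to the members.

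Other stellate genes and matrix genes, from lists drawn up for this pathway, are set here beside the shares of all genes called on the diet, 13.3% higher and 26% in either direction. Of 15 tested stellate genes outside the members, 3 rose and 0 fell, namely *Colec11*, a collectin (log2 change 0.66), *Rgs5*, a regulator of G protein signalling (0.64), and *Lhx2*, a transcription factor of resting stellate cells (0.95). Of 16 TGF-β receptor and signalling genes, 3 rose, among them the receptors *Tgfbr2* (0.68) and *Eng* (0.52), and 1 fell, the mediator *Smad4* (-0.31). Of 17 genes of collagen processing, 4 rose and 3 fell. *Loxl2*, a lysyl oxidase that acts on collagen IV, rose by 1.60 (SE 0.413, adjusted p = 0.0225), whereas the prolyl hydroxylase *P4ha1* fell by 0.65 (SE 0.178, adjusted p = 0.0309).

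Of 20 other matrix proteins, 7 rose and 2 fell. Periostin (*Postn*), a matricellular protein that binds collagen, was at 2.26, 4.17, 3.45 and 1.89 CPM in Chow and at 12.2, 8.01, 10.7 and 7.67 CPM in HFD, and rose by 1.75 (SE 0.302, adjusted p = 0.00275). In HFD/FGFR4 KD it was at 2.82, 5.53, 3.65 and 3.63 CPM, below every HFD library, and fell by 1.32 (SE 0.268, adjusted p = 0.0496) against HFD. *Loxl2* was at 8.71, 5.20, 9.48 and 3.72 CPM in HFD and at 1.58, 4.83, 3.22 and 1.86 CPM in HFD/FGFR4 KD, and fell by 1.26 (SE 0.380, adjusted p = 0.203). With KD on the high fat diet, they were the only genes called in the 5 lists of other stellate, TGF-β, collagen processing, matrix and protease genes. They were 1 of 20 tested matrix proteins and 1 of 17 tested genes of collagen processing. Among all tested genes, 3.14% were called in that comparison and 1.64% were called lower. Of 8 other matrix proteases, 2 rose on the diet and 0 fell.

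Markers of other cells also moved with the diet or with the libraries high in collagen. Portal fibroblast and mesothelial markers summed to 34.9, 11.9, 48.4 and 17.3 CPM in HFD replicates 1 to 4, the same order of libraries as for *Col1a1*, and to 11.3 to 22.2 in Chow and 10.7 to 24.2 in Chow/FGFR4 KD. In HFD/FGFR4 KD the sums were 13.8, 25.8, 39 and 25 CPM, highest in replicate 3, whereas *Col1a1* was highest in replicate 2. Of the 13 genes, 3 were tested and 0 called. Their defining markers *Thy1* and *Gli1* were at most 1.2 and 0.163 CPM, and the sum followed *Gsn*, at 19.2, 6.54, 28.4 and 8.68 CPM in HFD, a gene named after its values were seen. Bile duct markers summed to 66.4, 21.9, 104 and 37.6 CPM in HFD, to 42.5 to 63.7 in Chow, 47.0 to 63.4 in Chow/FGFR4 KD and 45.1 to 72.1 in HFD/FGFR4 KD, with 0 of 3 tested called and *Spp1*, also named after its values were seen, at 44.5, 6.70, 79.7 and 20.4 CPM in HFD. *Krt19* and *Krt7* were at most 1.07 and 2.01 CPM there. The part of these cells in the collagen values was not tested.

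Macrophage and Kupffer cell markers rose in 12 of 13 tested genes and summed to 111 to 135 CPM in Chow, 139 to 176 in Chow/FGFR4 KD, 189 to 314 in HFD and 179 to 297 in HFD/FGFR4 KD, with the highest sum in HFD replicate 2, where collagens were lowest. Endothelial markers, which include cells that make collagen IV, rose in 6 of 18 and summed to 258 to 336 CPM in Chow, 155 to 319 in Chow/FGFR4 KD, 302 to 334 in HFD and 242 to 313 in HFD/FGFR4 KD. Smooth muscle markers rose in 2 of 5, with *Cnn1* and *Actg2* at or under 0.811 CPM everywhere. Red blood cell markers rose in 4 of 5 and fell in 1, and hepatocyte markers fell in 6 of 10. Of 3 tested adipocyte markers, 2 rose on the diet and also fell with KD on the high fat diet, the same directions as the collagens. They were *Cidec*, a lipid droplet protein (3.62, adjusted p = 0.0281, and -2.29, adjusted p = 0.185), and *Cfd*, the adipokine adipsin (2.82, adjusted p = 0.0214, and -1.57, adjusted p = 0.228). *Cfd* was at 12.5, 22.4, 10.7 and 24.4 CPM in HFD, lowest in the replicates with the highest collagens. The defining adipocyte markers were near or at 0, with *Lep* at 0 everywhere, *Adipoq* at most 1.21 CPM and *Plin1* at most 0.605 CPM. The leukocyte antigen *Ptprc*, the only tested gene of 11 neutrophil and lymphocyte markers, rose by 0.80 (adjusted p = 0.0802). The part of any of these in the members' values was not tested.

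**Figure D4:**
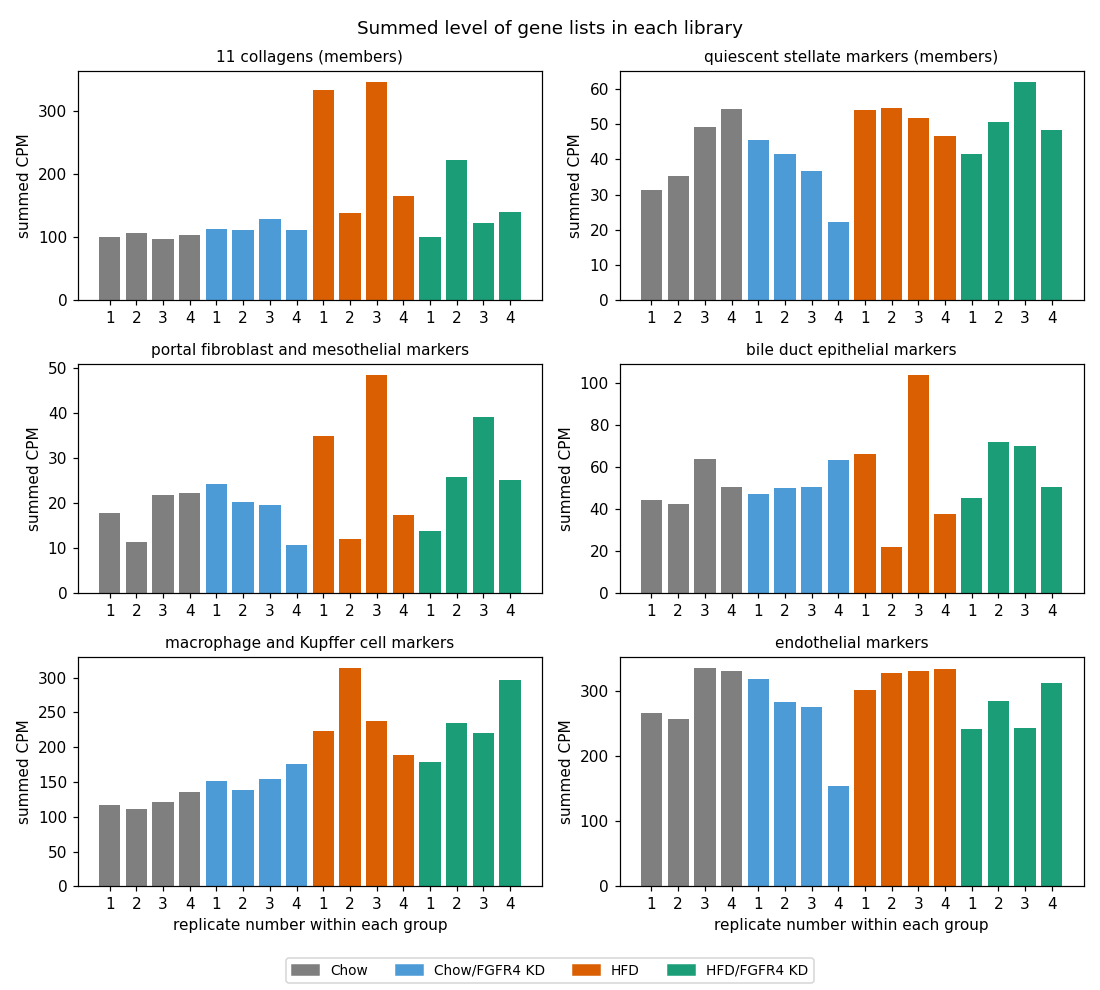
Bars are the summed CPM of a gene list in each library, coloured by group, on linear axes from 0. The 11 collagens reach 333 and 347 CPM in HFD 1 and HFD 3, where the portal and bile duct lists are also highest of their group, while quiescent stellate markers stay between 46.6 and 54.5 CPM across HFD and macrophage markers peak in HFD 2.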

How the data were processed

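RNA-seq of 16 livers, 4 in each group, was used. According to the methods, the authors pseudoaligned reads with kallisto (the submitters' processing notes also name fastp and the GRCm38 build) and summed transcripts to genes with tximport, and they deposited expected counts, and between 7.85% and 11.1% of a library's values had a fractional part. The transcriptome release and tool versions are not given in the sources used here. Labels and methods differ on the library kit. A symbol in the GENCODE vM21 annotation was found for 98.5% of genes.

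Counts were scaled with TMM (edgeR 4.0.16) and analysed by limma-voom, from limma 3.58.1 under R 4.3.3, with 1 mean for each of the 4 groups over all 16 libraries. The test, filter and threshold were taken from the methods as worded. The filter left 11324 genes, over which p-values were adjusted. Read instead as 1 CPM in at least 4 libraries, it would leave 12985. The paper's number of identified liver genes equals neither and lies nearer the second, so the tested set was not that of the study. Mice were housed 4 per cage, and which mice shared a cage is not given in the sources used here, so cage and group may not be separable and p-values measure the spread between these livers. No pair of libraries of a group agreed within sampling noise. On simulated data with 200 genes changed 2-fold, the HFD against Chow fit recovered 84%, with 27.6% of calls false. Alternatives were edgeR's quasi-likelihood test and DESeq2 (1.42.0), both on rounded counts, other filters and scaling, library quality weights, a replicate block and leaving out each library. CPM are TMM-scaled. Depth, from 3445949 to 5976449 counts, limits the genes with few counts, and 3 counts was taken as the floor for a count of 0. Figures and descriptions used Python 3.11.15.

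All 34 members are reported. From the other lists, called genes with the 3 smallest p in each direction, the first 4 markers and *Fgfr4* could be named. Members and lists were chosen with earlier results of these data known.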

Additional observations from a re-analysis of the deposited data

Results flagged for a closer look

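In 30 tested members and 4 groups, 120 sets of 4 libraries were examined for a library far from the other 3 (Dixon's test, which flags about 1 in 20 such sets by chance), and 5 were found. *Lrat* was at 11.8 CPM in Chow replicate 4, against 6.52 to 7.18 in the others. *Reln* was at 47.3 CPM in HFD/FGFR4 KD replicate 3, against 36.2 to 36.5. *Col1a1* was at 21.9 CPM in HFD/FGFR4 KD replicate 2, against 3.03 to 6.14. *Dcn* was at 35.8 CPM in Chow/FGFR4 KD replicate 4, against 60.2 to 63.3, and *Fn1* was at 1756 CPM in the same library, against 996 to 1116. HFD replicates 1 and 3, which lie together, cannot be found by this test.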

How the results depend on the processing

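For HFD against Chow, 17 members were called, 5 at an adjusted p under 0.05, 14 to 22 under the other fits and 12 to 21 when each library was left out. Scaling by library totals only moved the median of all genes by 0.287 and the share of higher calls among all called genes from 51.2% to 92.1%, with 22 members called. For HFD/FGFR4 KD against Chow/FGFR4 KD (2 called), 1 was called when genes needed 1 CPM in 4 or more libraries, with at least 10 counts, with no filter and with library quality weights, 4 with library totals only, 0 at an adjusted p under 0.05, and 1 to 6 without a library, of which 1 was lower without HFD/FGFR4 KD replicate 2. For HFD/FGFR4 KD against HFD (1 called), 0 were called with edgeR's quasi-likelihood test, at least 10 counts, no filter, library totals only, only the groups compared and an adjusted p under 0.05, 3 with DESeq2, 5 with library quality weights, and 0 to 9 without a library. With a library left out, the share of all genes called was 21.3% to 26.6% for HFD against Chow. For HFD/FGFR4 KD against Chow/FGFR4 KD it was 10.5% to 22.4%, and for HFD/FGFR4 KD against HFD 0.786% to 5.49%. With *Gm42418* and *Lars2* removed before scaling, 17, 2 and 1 members were called in these comparisons. For the difference between KD effects, 0 to 1 were called without a library. With library totals only, summed collagens in Chow were 92.8 in place of 102 CPM, and the median correlation between members was 0.62 in place of 0.49. Replicate numbers share no stated litter or day, and deviations of same-numbered libraries correlated at -0.26 to 0.22, so they were not taken as pairs. The replicate block gave 18, 2, 1, 0 and 0 called members, with *Col4a1* on HFD at -0.60 (adjusted p = 0.348). No called member changed sign under any alternative run, and 11 of the 17 called for HFD against Chow kept their call in all 19 fits at the same threshold. None of these fits left out HFD replicates 1 and 3 together. The causes of these shifts were not tested.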
